A study of Mus musculus with 18 samples.

Results

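The 10 genes described here encode heat shock proteins of the cytosol and the mitochondrion and the transcription factor that drives their induction. They are Hsf1, Hspa8, Hspa1a, Hspa1b, Hsph1, Dnajb1, Hsp90aa1, Hsp90ab1, Hspd1 and Hspe1. They were taken by name, as the rows of the gene count table whose Ensembl identifiers carry these symbols, and make up 10 of the 55536 genes in the table. All 10 had enough counts to be tested in every comparison.

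RNA sequencing had been done on CD8+ T cells of OT-I mice, from spleen and lymph nodes, in 18 libraries. OT-I mice carry a transgenic receptor for SIINFEKL, a peptide of ovalbumin. The 8 libraries labelled naive were taken at day 0. The 8 labelled control received a scrambled sequence, and the 2 labelled knockout carry the label Tra2bKO, a knockout of the splicing regulator Tra2b; both were taken 4 days after stimulation with SIINFEKL and antibodies to OX40 and 4-1BB, which are costimulatory receptors. The labels do not say how the sequences were delivered, nor whether the libraries of a group are separate animals; p-values therefore reflect spread between libraries only, and that spread may be technical.

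Heat shock proteins are chaperones, which help other proteins fold, keep them soluble or hand them on for degradation. HSF1 is held inactive by chaperones in unstressed cells and, once unfolded proteins draw these away, binds heat shock elements, inverted repeats of the bases GAA, in the promoters of the inducible genes. Some members are made at all times in large amounts, such as Hspa8, and others are nearly silent until stress, such as Hspa1a and Hspa1b. T cells that leave rest grow, divide and make much new protein, work in which chaperones take part.

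The promoters were searched for the shortest form of this element, an inverted pair written GAANNTTC or TTCNNGAA, in the 250 bases before a RefSeq start (GRCm38.p6). Each form is its own reverse complement, so both strands were covered, and forms were allowed to overlap. Windows were at hand for 6 of the 10 genes. A gene was counted if any of its windows matched, whereas the percents given beside it are per window, so the measures are unlike. A pair was found for 5 of the genes, against 12.8% of all 32851 promoter windows. These are not separate finds, since Hspd1 and Hspe1 share a stretch and the windows of Hspa1a and Hspa1b are near copies. A triplet, written GAANNTTCNNGAA or TTCNNGAANNTTC, was found for Hspd1 and Hspe1, against 0.466% of all windows. A match of letters is a description and not a site that was measured here. The 250 bases before the start of Hspa1a (chr17:34972157-34972406, minus strand) and of Hspa1b (chr17:34959239-34959488, minus strand) are shown whole because the 2 genes are near copies whose reads are hard to assign. The pair is in capitals and begins 104 bases before the start in both:
Hspa1a: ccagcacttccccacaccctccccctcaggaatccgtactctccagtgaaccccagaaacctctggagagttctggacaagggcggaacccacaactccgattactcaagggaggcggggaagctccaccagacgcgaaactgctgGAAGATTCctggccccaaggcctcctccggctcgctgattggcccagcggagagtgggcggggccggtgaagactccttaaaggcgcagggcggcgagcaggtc
Hspa1b: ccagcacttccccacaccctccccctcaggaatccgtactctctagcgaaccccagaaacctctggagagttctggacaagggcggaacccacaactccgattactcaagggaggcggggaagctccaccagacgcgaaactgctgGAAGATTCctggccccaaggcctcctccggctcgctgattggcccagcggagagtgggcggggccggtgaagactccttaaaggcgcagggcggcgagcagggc

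The windows of Hspa1a and Hspa1b were 98.8% identical and differed at 3 positions, C44T, T47C and T249G, counted from 1 at the 5′ end of the printed run with the base of Hspa1a first. Hspd1 and Hspe1 lie head to head on chromosome 1, with Hspd1 on the minus strand at 55077835 to 55088243 and Hspe1 on the plus strand at 55088132 to 55091307 (GENCODE M21, GRCm38). A single stretch between the main transcripts of this gene pair holds 3 overlapping inverted pairs. They begin 89, 84 and 79 bases before the start of Hspe1, and also fall in the window before 1 of the RefSeq starts of Hspd1. The stretch lies upstream of the first exons of Hspd1-201 and Hspe1-201 and inside the span of the minor transcript Hspd1-202. It is shown, with a stretch from Hsph1 that holds a single pair 33 bases before the start, on chr1:55088053-55088082 (plus strand) and chr5:149636351-149636380 (minus strand), capitals marking the repeats:
Hspe1: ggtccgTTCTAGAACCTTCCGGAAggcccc
Hsph1: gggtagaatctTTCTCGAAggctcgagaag
The windows of Dnajb1 held neither form.

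Total counts ran from 68249844 to 93972513 per library, and each member had at least 79 counts in every library. Tra2b, the targeted gene, stood at 248 to 352 CPM (counts scaled to the library's TMM-adjusted total) in the libraries labelled naive, 338 to 526 CPM in the controls and 361 and 370 CPM in the 2 labelled knockout. Its fall against the controls did not pass the test (log2 fold change -0.34, edgeR adjusted p = 0.0899), and a gene count is no check of an edit. Trav14 segments, which OT-I receptors use, held 97.1 to 98.6% of the V alpha counts in the controls and 97.6% in each knockout library, but 11.9 to 24.2% in the libraries labelled naive, which goes against their genotype label. Markers of other cells were mostly higher in the libraries labelled naive. All 8 B cell markers tested were lower in the controls, with summed levels of 1135 to 3306 CPM in naive and 126 to 453 CPM in control libraries, although Pax5 and Cd79a were near 0 in both. Cd74 and the class II genes, which dendritic cells also express, are in this list, and Cd74 alone stood at 521 to 1565 CPM in naive libraries. Of 8 myeloid and dendritic cell markers tested, 6 were lower in the controls, among them Flt3 (log2 fold change -6.51) and Xcr1 (-3.37), and Batf3 was higher (0.85), with sums of 106 to 195 against 60.3 to 80.6 CPM; Siglech and Cd14 were too low to be tested. All 7 natural killer cell markers tested were lower too, with sums of 237 to 573 against 49.7 to 178 CPM. Gzma alone stood at 104 to 416 CPM in naive libraries, whereas Ncr1, Klra4 and Klra8 stood at 8.76 CPM or less there. The T cell markers were present in all groups, but all 7 were lower in the controls, Cd8a standing at 877 to 1107 CPM in naive and 393 to 519 CPM in control libraries. Of 4 CD4 T cell markers Cd40lg (log2 fold change 2.85) and Zbtb7b (2.63) were higher in the controls, Foxp3 was lower (-3.09), and Cd4 did not pass and stood at 1.48 CPM or less, the sums being 4.13 to 6.07 and 4.42 to 20.8 CPM. The part of these differences in the results below was not tested, and in such bulk samples fewer cells of a type and less RNA per cell cannot be told apart.

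The comparison of control with naive asks how the chaperone genes differed between stimulated cells at day 4 and cells labelled naive at day 0. The groups also differed in the scrambled sequence and in the share of Trav14 segments, and the part of each was not tested. Of the 10 genes, 7 were higher in the controls and 1, Hsf1, was lower, while Hspa1a and Dnajb1 did not pass. Over all 17078 genes tested, 32.5% were higher and 39.0% lower, so that the 8 of 10 called in either direction compare with 71.5% of all genes. The members' median log2 fold change was 0.86, against -0.08 for all genes. The HSP90 pair and the mitochondrial pair HSP60 and HSP10 were higher in every control library than in any naive library, as were 20.1% of all genes, and with Hsf1 5 members did not overlap in either direction, against 42.3%. The HSP70 genes and Hsph1 overlapped between the groups. Together the 10 genes held 0.644 ± 0.115% of the counts of a naive library (SD, n = 8) and 0.962 ± 0.124% of those of a control library (SD, n = 8).

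**Figure D1:**
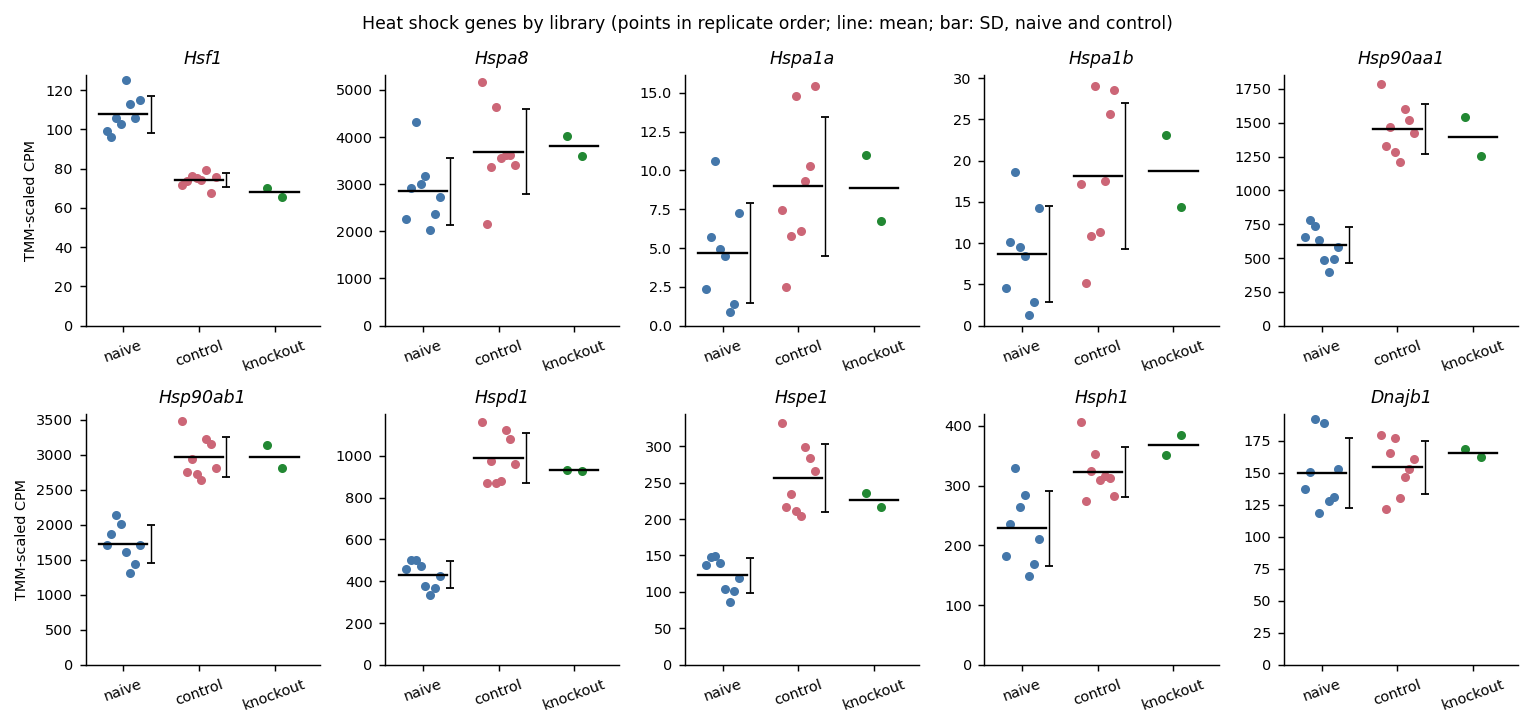
TMM-scaled CPM of each heat shock gene (linear axis from 0) in the libraries labelled naive, control and knockout, 1 point a library, with the mean as a line and the SD as a bar for groups of 8. Hsp90aa1, Hsp90ab1, Hspd1 and Hspe1 separate naive from stimulated libraries, Hsf1 does so in the other direction, and the HSP70 genes overlap.

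Hsf1 encodes the master transcription factor of the heat shock response and lies on chromosome 15 at 76477422 to 76501913. It stood at 96.1 to 125 CPM (median 106) in the naive libraries, 67.8 to 79.4 CPM (median 74.9) in the controls and 70.3 and 65.6 CPM in the knockout libraries. Every stimulated library was below every naive library. The controls were 1.45-fold lower than naive (log2 fold change -0.53, SE 0.05, edgeR adjusted p = 3.06e-08). Non-overlap in this direction was seen for 22.2% of all genes. Its relatives Hsf2 and Hsf4 and the HSF1 binding protein Hsbp1 did not pass, with log2 fold changes of -0.29, -0.25 and -0.01.

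Hspa8 encodes the constitutive cytosolic HSP70, which folds new chains and uncoats clathrin vesicles. It ranged from 2039 to 4329 CPM (median 2822) in naive libraries, from 2150 to 5171 CPM (median 3580) in controls, and stood at 4033 and 3602 CPM in the knockout libraries. Naive 3 was above 6 of the 8 controls, and control 2 was below 7 of the 8 naive libraries. The controls were 1.29-fold higher (95% interval 1.03 to 1.63, log2 fold change 0.37, SE 0.16, edgeR adjusted p = 0.0440). This call was lost when any of naive 1, 2, 4, 6, 7 or 8 or control 1 or 4 was left out (adjusted p up to 0.0833), and with scaling by total counts alone (log2 fold change 0.28, adjusted p = 0.114). Of 7 alternatives in processing, Hspa8 kept its call in 5.

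Hspa1a and Hspa1b encode the stress-inducible HSP70, which cells make on heat or protein damage, and lie on chromosome 17 at 34969190 to 34972156 and 34956436 to 34959238. Hspa1b ranged from 1.31 to 18.7 CPM (median 9.0) in naive libraries, from 5.18 to 29.1 CPM (median 17.3) in controls, with 23.1 and 14.4 CPM in the knockout libraries. Hspa1a ranged from 0.870 to 10.6 CPM (median 4.69), from 2.48 to 15.4 CPM (median 8.40), and stood at 11.0 and 6.74 CPM. These were the members with the widest spread inside a group, the SD being 67.0% of the mean for Hspa1b in naive and 48.9% in control libraries. For both genes naive 6 was lowest, then naive 7 and naive 1, and naive 3 was highest, while control 2 was lowest among the controls.

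Hspa1b was 2.08-fold higher in the controls (95% interval 1.08 to 3.99, log2 fold change 1.06, SE 0.45, edgeR adjusted p = 0.0422). Hspa1a had a log2 fold change of 0.93 (SE 0.44, edgeR adjusted p = 0.0636) and did not pass. The call of Hspa1b was lost without any of naive 1, 2, 4, 5 or 7 or control 4, 6, 7 or 8, and Hspa1a passed without naive 3, naive 8 or control 2. Of 8 alternatives in processing, Hspa1b kept its call in 5. Hspa1b-201 shares 62.3% of its 50-base words with Hspa1a-201, so their reads cannot be fully told apart. Summed to a single feature, an alternative chosen after seeing the data, they gave a log2 fold change of 1.02 (edgeR adjusted p = 0.0493). Hspa1b counts exceeded those of Hspa1a by a factor of 1.86 ± 0.174 in naive (SD, n = 8) and 2.03 ± 0.238 in control libraries (SD, n = 8).

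Hsph1 encodes the HSP110 that exchanges nucleotide on HSP70 and helps it pull aggregates apart. It ranged from 149 to 330 CPM (median 223) in naive libraries, from 274 to 407 CPM (median 314) in controls, and stood at 351 and 384 CPM in the knockout libraries. Only naive 3 and naive 5 reached the range of the controls. The controls were 1.41-fold higher (log2 fold change 0.50, SE 0.14, edgeR adjusted p = 0.00354). Dnajb1, the J protein that delivers clients to HSP70, ranged from 119 to 192 CPM (median 144), from 121 to 179 CPM (median 157), and stood at 169 and 162 CPM. Its groups lay on top of each other, with a log2 fold change of 0.04 (95% interval -0.18 to 0.26, edgeR adjusted p = 0.735).

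Hsp90aa1 and Hsp90ab1 encode the inducible and the constitutive cytosolic HSP90, which hold kinases and steroid receptors in a state ready for activation. Hsp90aa1 ranged from 396 to 781 CPM (median 608) in naive libraries, from 1212 to 1787 CPM (median 1448) in controls, with 1542 and 1251 CPM in the knockout libraries. Hsp90ab1 ranged from 1320 to 2137 CPM (median 1715) and from 2646 to 3479 CPM (median 2879), with 3136 and 2811 CPM. For both, no naive library reached any stimulated one. Hsp90aa1 was 2.44-fold higher in the controls (95% interval 2.03 to 2.93, log2 fold change 1.29, SE 0.13, edgeR adjusted p = 4.34e-08). Hsp90ab1 was 1.72-fold higher (95% interval 1.51 to 1.96, log2 fold change 0.78, SE 0.09, edgeR adjusted p = 4.09e-07).

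Per length, as TPM (counts divided by transcript length and scaled to the library's sum), the constitutive HSP90 outnumbered the inducible one in every library. The ratio of Hsp90ab1 to Hsp90aa1 TPM was 3.49 ± 0.485 in the naive libraries (SD, n = 8, range 2.78 to 4.22) and 2.08 ± 0.0888 in the controls (SD, n = 8, range 1.99 to 2.22). It was 2.06 and 2.22 in the knockout libraries. The naive and control ranges did not overlap, and the naive libraries were the more scattered. The ratio itself was not tested. Its Hsp90aa1 value includes the 924-base retained-intron transcript Hsp90aa1-206, which weighs more per length than in counts. That transcript held 1.65 to 10.1% of the gene's counts in naive and 10.3 to 12.6% in control libraries. Part of the fall in the ratio therefore lies in this transcript, and the ratio of coding transcripts alone was not computed.

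Hspd1 encodes HSP60, the barrel-shaped chaperonin of the mitochondrial matrix, and Hspe1 its lid HSP10, so that the head-to-head gene pair makes the 2 parts of a single machine. Hspd1 ranged from 333 to 503 CPM (median 441) in naive libraries, from 869 to 1159 CPM (median 965) in controls, with 931 and 928 CPM in the knockout libraries. Hspe1 ranged from 85.7 to 150 CPM (median 128) and from 203 to 332 CPM (median 250), with 235 and 217 CPM. Naive and stimulated libraries stood apart for both genes. Hspd1 was 2.30-fold higher in the controls (95% interval 2.0 to 2.64, log2 fold change 1.20, SE 0.09, edgeR adjusted p = 3.31e-09). Hspe1 was 2.08-fold higher (95% interval 1.72 to 2.51, log2 fold change 1.06, SE 0.13, edgeR adjusted p = 7.98e-07). The ratio of their TPM was 1.15 ± 0.0632 in naive (SD, n = 8) and 1.28 ± 0.0978 in control libraries (SD, n = 8), Hspd1 being the higher in each library.

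**Figure D2:**
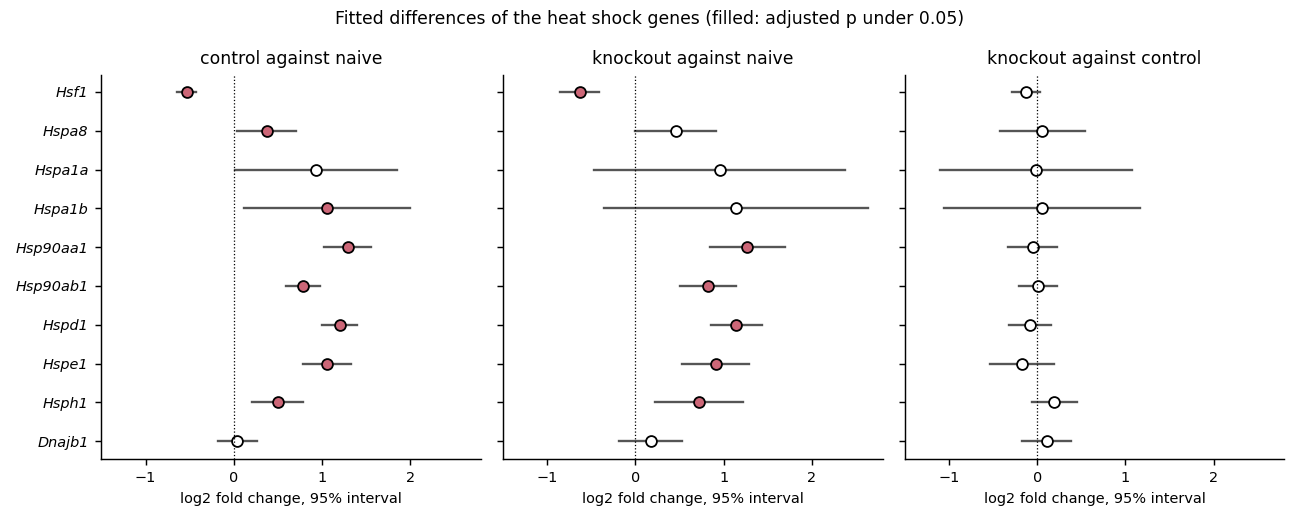
Fitted log2 fold changes of the heat shock genes with 95% intervals in the 3 comparisons, filled where the adjusted p is under 0.05. Against naive, Hsf1 lies below 0 and the HSP90, HSP60 and HSP10 genes above it in both stimulated groups, and between knockout and control every interval covers 0.

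The order of the levels per length was led by Hspa8 in each group. In the naive libraries it stood at 2034 ± 482 TPM (SD, n = 8), followed by Hsp90ab1 at 1230 ± 177 TPM. Hsp90aa1 (359 ± 74.4 TPM), Hspd1 (321 ± 44.1 TPM) and Hspe1 (280 ± 50.7 TPM) came next, with ranges that overlapped. Hsph1 (119 ± 30.5 TPM), Hsf1 (92.2 ± 8.57 TPM) and Dnajb1 (88.4 ± 15.2 TPM) could not be ordered beyond their spread. Hspa1b and Hspa1a were far below, at 5.48 ± 3.62 and 2.78 ± 1.89 TPM.

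In the controls Hspa8 (2473 ± 574 TPM) and Hsp90ab1 (1949 ± 165 TPM; SD, n = 8 here and below) overlapped. Hsp90aa1 at 941 ± 106 TPM lay above Hspd1 at 685 ± 67.5 TPM in range as well as in mean, and Hspd1 overlapped Hspe1 at 539 ± 89.3 TPM. The value of Hsp90aa1 includes its 924-base retained-intron transcript Hsp90aa1-206, and the order of coding transcripts alone was not computed. The lower genes were Hsph1 (151 ± 18.7 TPM), Dnajb1 (84.1 ± 10.3 TPM), Hsf1 (59.6 ± 3.13 TPM), Hspa1b (10.6 ± 5.17 TPM) and Hspa1a (4.94 ± 2.46 TPM). The ranges of Dnajb1 and Hsf1, 68.1 to 97.2 and 54.3 to 63.7 TPM, did not touch in the controls, whereas they overlapped in the naive libraries.

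Within groups the members did not vary alike across libraries. After each library's value was set against its group mean, Hspd1 and Hspe1 had a Pearson correlation of 0.98 over the 18 libraries, and Hsp90aa1 had 0.94 with each of them. Hspa8 had 0.84 with Hsph1 and 0.76 with Dnajb1, but 0.50 with Hsp90aa1. Hsf1 had -0.50 with Hsp90aa1 and Hspd1 and 0.00 with Hspa8. These are descriptions over 18 libraries whose points share depth and library make-up, and Hspa1a with Hspa1b, at 0.99, also shares reads. Among 7068 genes of at least 4 mean log2 CPM, the most like Hspd1 were Hspe1 (0.98), the splicing factor Isy1 (0.97) and the HSP90-associated Nudc (0.96). Those most like Hspa8 were the dynein light chain Dynll1 (0.93), the HSP90 co-chaperone Chordc1 (0.90) and the membrane protein gene Tmem33 (0.90), and those most like Hspa1b were Hspa8 (0.77), the HSP70 co-chaperone Bag2 (0.75) and Dynll1 (0.75). Without the 2 libraries farthest from the median, the value for Hspd1 with Hspe1 was 0.97, and that for Hspa1b with Hspa8 was 0.61.

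**Figure D3:**
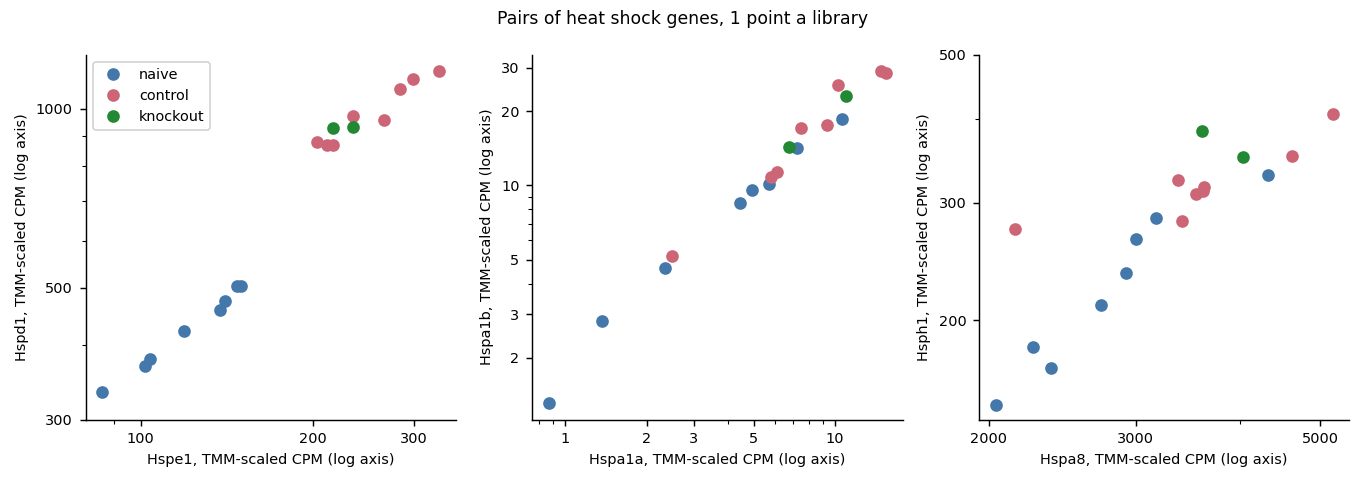
TMM-scaled CPM of Hspd1 against Hspe1, Hspa1b against Hspa1a and Hsph1 against Hspa8 on log axes, 1 point a library, coloured by group. Hspd1 and Hspe1 fall on a narrow band with naive and stimulated libraries apart, whereas Hspa8 and Hsph1 spread along a band on which the groups mix.

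The other chaperone genes were counted by list, and these counts stand against 32.5% of all genes called higher, 39.0% called lower and 20.1% higher without overlap. All 8 subunits of the cytosolic chaperonin TRiC, which folds actin and tubulin, rose in the controls, each without overlap, with a median log2 fold change of 0.69. Tcp1 (0.87) and Cct6a (0.82) were among them. All 11 mitochondrial chaperones and proteases tested rose, with a median of 0.54, among them the matrix HSP70 gene Hspa9 (0.78), its nucleotide exchange factor Grpel1 (0.59) and the mitochondrial HSP90 gene Trap1 (0.73). Of 6 prefoldin subunits, which hand chains to TRiC, 5 rose, such as Pfdn1 (0.88), and Pfdn5 fell (-0.59), the list's median being 0.48.

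The partners of HSP90 and HSP70 were mostly higher. Of 13 HSP90 co-chaperones 10 rose and 1 fell, with a median of 0.46, the peptidyl-prolyl isomerase genes Fkbp5 (1.67) and Ppid (0.87) and the p23 gene Ptges3 (0.76) rising and Cdc37l1 falling (-0.40). Of 10 HSP70 co-chaperones 8 rose and 1 fell, with a median of 0.48, Bag2 having the largest value of the list at 1.87 and Stip1, which links HSP70 to HSP90, standing at 0.72. Of 7 other HSP70 and HSP110 genes 4 rose, namely Hspa2 (1.68), Hspa4l (1.03), Hspa4 (0.59) and Hspa14 (0.52), and none fell. Of 10 J protein genes 3 rose, such as Dnajc2 (0.61), a share near that of all genes (32.5%), and 6 fell, led by Dnajb2 (-2.04) and Dnaja4 (-1.95), against 39.0% of all genes, with a median of -0.35. Of 7 small heat shock protein genes only Hspb6 had enough counts in this comparison, at 4.35 ± 0.887 against 6.13 ± 1.15 CPM (SD, n = 8 each; log2 fold change 0.49, edgeR adjusted p = 0.00484). Every gene of these lists described as rising or falling had an edgeR adjusted p under 0.05.

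Immediate-early genes respond to handling as well as to receptor signals. Of 14 tested, 10 were lower in the controls and none higher, against 39.0 and 32.5% of all genes, with a median log2 fold change of -0.68 and summed levels of 796 to 931 CPM in naive and 463 to 591 CPM in control libraries. Their part in the levels of the inducible HSP70 genes was not tested.

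**Figure D4:**
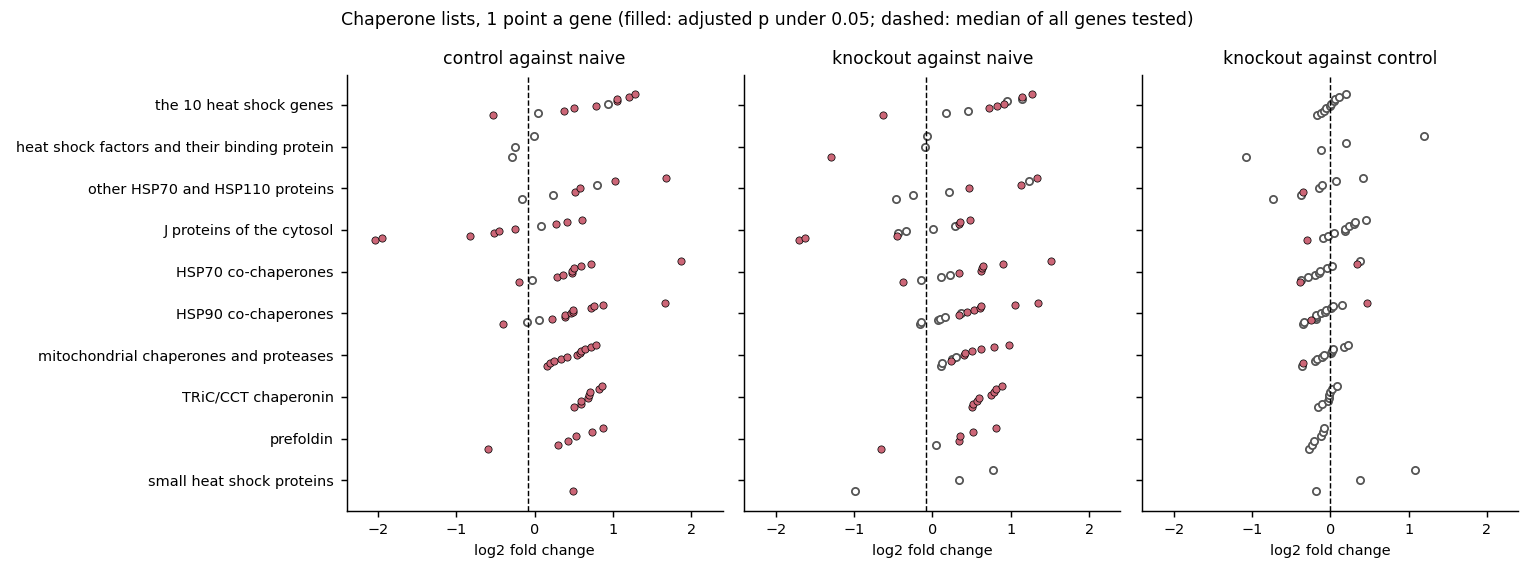
Log2 fold change of each tested gene of the chaperone lists in the 3 comparisons, 1 point a gene, filled where the adjusted p is under 0.05, with the median of all genes tested as a dashed line. Chaperonin, mitochondrial and co-chaperone genes lie mostly to the right of the line in both stimulated groups, the J proteins fall on both sides, and between knockout and control few points are filled.

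The comparison of knockout with control asks whether the genes differed in stimulated cells labelled as lacking Tra2b. None of the 10 genes passed the edgeR test, none at an unadjusted p under 0.05 and none with DESeq2, whereas 14.9% of all 18651 genes tested were called. None was higher or lower, against 7.62 and 7.24% of all genes, and no member was without overlap between the groups, against 23.8%. Log2 fold changes ran from -0.17 for Hspe1 (95% interval -0.53 to 0.19) to 0.20 for Hsph1 (95% interval -0.06 to 0.45). The intervals were narrowest for Hsf1, from -0.28 to 0.04, and for Hsp90ab1, from -0.20 to 0.22. They were widest for Hspa1a, from -1.10 to 1.08, and Hspa1b, from -1.06 to 1.16, so that a 2-fold change of these genes in either direction was within what 2 libraries allow. Of all genes, 2772 were called with both knockout libraries, and leaving out knockout 2 lost far more calls than leaving out knockout 1.

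The libraries labelled knockout differed from each other more than their chaperone values show. All 5 erythroid markers were called higher in them, and their summed level was 132 CPM in knockout 1 and 13.4 CPM in knockout 2, against 0.443 to 17.3 CPM in the controls; the part of this in the comparison was not tested. Of the chaperone lists few genes were called. The cytosolic HSP70 Hspa14 (-0.34), Trap1 (-0.34), Dnajc2 (-0.29), the nucleotide exchange factor Hspbp1 (-0.39) and the HSP90-bound immunophilin Fkbp8 (-0.25) fell on the log2 scale, and Bag4 (0.34) and Cdc37l1 (0.46) rose, with edgeR adjusted p from 0.00294 to 0.0374. None of 8 TRiC subunits and none of 6 prefoldin subunits passed, the medians being -0.02 and -0.16, against -0.01 for all genes.

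The comparison of knockout with naive shares its naive libraries with the first comparison, so that its values are given beside it and not as further support. Of the 10 genes 5 were higher and Hsf1 was lower, against 21.1 and 23.6% of all 19776 genes tested. The 6 called in either direction compare with 44.7% of all genes, and the same 6 did not overlap between the groups, against 46.4%. The 5 were Hsp90aa1 (log2 fold change 1.27, SE 0.20), Hspd1 (1.14, SE 0.13), Hspe1 (0.91, SE 0.17), Hsp90ab1 (0.82, SE 0.15) and Hsph1 (0.72, SE 0.23), with edgeR adjusted p from 3.04e-05 to 0.0224. Each lay above all naive libraries in both knockout libraries, as did 21.3% of all genes. Hsf1 had a log2 fold change of -0.63 (SE 0.10, edgeR adjusted p = 0.000331) and stood below all naive libraries, as did 25.2% of all genes. The call of Hsph1 rested on each of the 2 libraries: the adjusted p was 0.0960 without knockout 1 and 0.143 without knockout 2.

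Hspa8 (0.45, SE 0.21), Hspa1b (1.14, SE 0.68), Hspa1a (0.95, SE 0.65) and Dnajb1 (0.17, SE 0.16) did not pass against naive, with edgeR adjusted p from 0.0985 to 0.425. Hspa8 passed without naive 3 (adjusted p = 0.0109). All 8 TRiC subunits were higher in the knockout libraries than in the naive ones (median log2 fold change 0.67), as were 7 of 11 mitochondrial chaperones and proteases (0.40), 7 of 13 HSP90 co-chaperones (0.37) and 6 of 10 HSP70 co-chaperones (0.48), against 21.1% of all genes called higher and a median of -0.08. Of all calls in this comparison 47.3% were in the direction of higher levels, and 60.5% once a trend on transcript length and GC content was removed, an alternative chosen after seeing the data.

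Transcript counts add which forms of these genes were read. Usage, the change of a transcript against the other transcripts of its gene, could be tested for 8 members, since Hspa1a and Hspa1b have 1 transcript each. Between control and naive only Hsp90aa1 passed (adjusted p = 0.000980 with edgeR's diffSpliceDGE), against 8.75% of 8581 genes. Hsp90aa1-202, the main coding transcript (chromosome 12, 110690605 to 110696395), held 86.8 to 97.9% of the gene's counts in naive and 74.9 to 87.5% in control libraries. Hsp90aa1-206, annotated as a retained intron (110694175 to 110695672), held 1.65 to 10.1% (median 3.37%) in naive, 10.3 to 12.6% (median 10.8%) in control and 12.0 and 13.0% in knockout libraries. The coding transcript Hsp90aa1-201 held 0.246 to 3.79% in naive and 1.94 to 14.7% in control libraries. As a single transcript its rise against the rest of the gene passed (relative log2 fold change 1.64, adjusted p = 0.000714 with diffSpliceDGE). The coding transcript Hsf1-207 also passed singly (1.85, adjusted p = 0.0432 with diffSpliceDGE), although Hsf1 as a gene did not (adjusted p = 0.101 with diffSpliceDGE). It held 0 to 5.72% of the counts of Hsf1 in naive and 0 to 40.0% in control libraries. Of all 34029 single transcripts tested, 2.95% passed. For Hsp90aa1-206, naive 1 and naive 5 held the most among the naive libraries, at 9.33 and 10.1%.

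**Figure D5:**
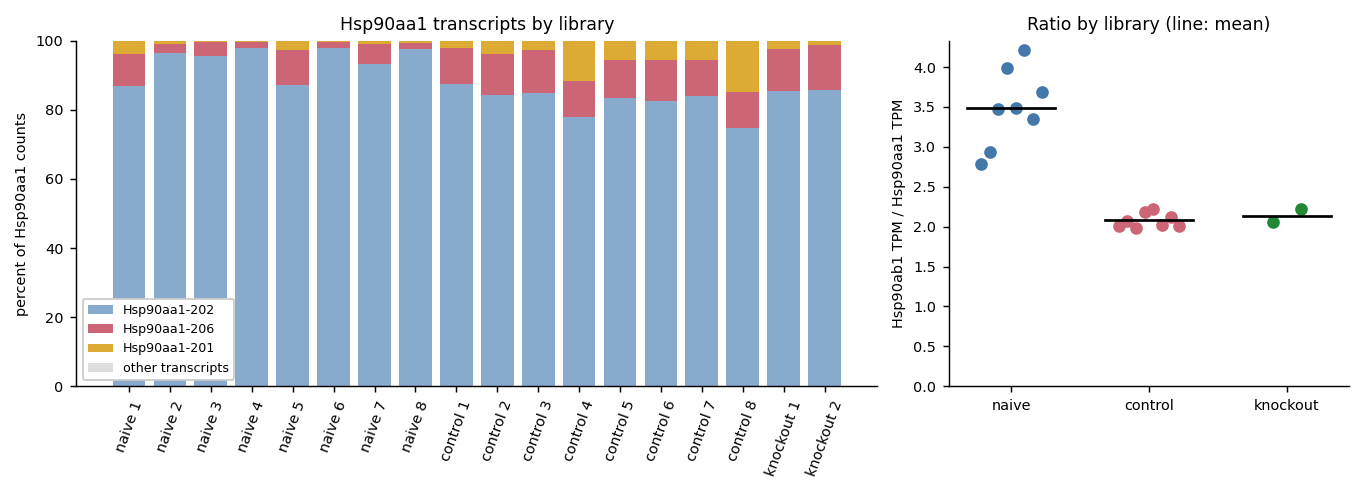
Left, share of each Hsp90aa1 transcript in the gene's counts by library, in percent; right, ratio of Hsp90ab1 to Hsp90aa1 TPM by library with the group mean as a line. Hsp90aa1-206 holds over 10% in every stimulated library and varies among the naive ones. The ratio, which sums all transcripts of each gene, falls from between 2.78 and 4.22 in naive to between 1.99 and 2.22 in control libraries.

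With limma's voom and diffSplice, an alternative chosen after seeing the data, Hsp90aa1 also passed (adjusted p = 2.11e-08), as did Hspe1, Hspa8 and Hsp90ab1, but that method called 42.7% of all genes. Between knockout and control only Hspa8 passed with diffSpliceDGE (adjusted p = 0.000441), against 1.70% of 9653 genes. That call rested on the retained-intron transcript Hspa8-207, which stood at 86.2 CPM in knockout 1, 1.44 CPM in knockout 2 and 1.78 to 2.95 CPM in the controls, so that 1 library carried it, and it did not pass with voom (adjusted p = 0.494).

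The stricter filter on transcripts, at least 10 counts in every library, changed these calls. Between control and naive it called Hspa8, Hsp90aa1, Hsp90ab1, Hspe1 and Hsph1 (adjusted p from 0.000105 to 0.00325 with diffSpliceDGE), against 39.5% of 5928 genes. Between knockout and control it called Hspa8 (adjusted p = 4.36e-06) and Hsph1 (adjusted p = 0.0346), against 2.32% of 6219 genes. In both comparisons the single transcripts of Hspa8 and Hsph1 that passed were Hspa8-207 and Hsph1-204, while Hspa8-208 and Hsph1-211 did not pass and Hsph1-201 was removed by the filter. Among the naive libraries Hspa8-207 stood at 19.0 CPM in naive 6 and 30.2 CPM in naive 8. The remaining naive libraries were at 1.45 to 2.93 CPM, beside 1.78 to 2.95 CPM in the controls.

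The other shares are given as a description. Hspd1-202, whose span covers the stretch of repeats printed above, held 0.832 to 1.80% of the counts of Hspd1 in naive, 0.737 to 3.23% in control and 3.05 and 2.92% in knockout libraries. The single-exon retained-intron transcript Hsf1-208 held 10.3 to 14.4% of the counts of Hsf1 in naive, 4.44 to 9.77% in control and 6.12 and 8.77% in knockout libraries, without overlap between naive and stimulated ones, but its change against the rest of the gene did not pass (adjusted p = 0.638 with diffSpliceDGE). Hsph1 counts were split between 2 coding transcripts, Hsph1-201 and Hsph1-211, the latter holding 28.3 to 47.3% in naive, 32.8 to 99.5% in control and 18.4 and 33.3% in knockout libraries. In control 8 Hsph1-201 was at 0 counts and Hsph1-211 held 99.5%. Hspa8-208, a retained-intron form, held 12.8 to 24.9% of the counts of Hspa8 in naive, 9.93 to 19.7% in control and 24.2 and 19.7% in knockout libraries.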

How the data were processed

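RNA of 18 libraries was sequenced from low-input polyA cDNA, per the labels' protocols. The deposited files hold each estimated count per transcript and per gene as a whole number, and summing transcripts gives the gene value. Tools named in the submitters' processing notes are DESeq2 1.30.1, R 4.0.5, StringTie 2.1.0, SAMtools 1.9 and STAR 2.7.1a, and builds mm10 and mm39 are listed without a role; whether counting used strand is not given in the sources used here. All identifiers were in GENCODE M21 (GRCm38), used for names, coordinates and lengths. Rows with numeric identifiers (26248, 0.0513 to 0.132% of counts) were left out, and 97 spike-in rows held 0 counts.

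Genes were compared with edgeR 4.0.16 in R 4.3.3 (robust quasi-likelihood test, filterByExpr with a minimum count of 10, TMM within each comparison, prior count 2, Benjamini-Hochberg over all genes, called under 0.05). Levels are TMM-scaled CPM over 18 libraries, and levels between genes are TPM computed from transcript counts and lengths. Transcript usage was tested with diffSpliceDGE on a quasi-likelihood fit, a choice the plan had left unstated. The named genes are the 10 members, up to 4 genes with the smallest p of each other list and comparison, and the 3 most correlated genes of 3 members; further list genes and single transcripts were chosen after their values were seen. The members and lists were chosen with earlier results of these data known. Promoter sequences are from RefSeq (GRCm38.p6). Steps were tested on simulated data. Alternatives were DESeq2 1.42.0, RLE factors, total counts, no filter, all groups in one fit, the replicate number as a block, each library left out and stricter transcript filters; added after seeing the data were a length and GC trend, Hspa1a and Hspa1b summed, and voom with diffSplice of limma 3.58.1. 2 further alternatives, which left out libraries picked by their heat shock gene levels, were run and are not kept because they chose samples by the outcome; for control against naive, one lost the calls of Hspa8 and Hspa1b and the other gained Hspa1a. No 2 libraries of a group held identical values. Depth per library is 68249844 to 93972513 counts.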

Additional observations from a re-analysis of the deposited data

Results flagged for a closer look

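Dixon's criterion was applied to 66 sets of 8 libraries (member levels and transcript shares of naive and control libraries), of which chance flags about 1 in 20, and marked a single library in 7. No member's gene level was marked. Hspd1-201 held 98.18% of the counts of Hspd1 in naive 2, below the other naive libraries, and Hspd1-202 correspondingly held 1.80% there. Among Hsf1 transcripts in naive libraries, Hsf1-211 held 4.99% and Hsf1-207 held 5.72% in naive 8, both above the rest, and Hsf1-208 held 10.3% in naive 3, below the rest. Among the controls, Hsf1-207 held 40.0% of the counts of Hsf1 in control 1, the next library being at 11.5%, and Hsf1-203 held 5.93% in control 4. Naive 2 and naive 8 were each marked for 2 transcripts of the same gene, whose shares are not independent of each other. The causes were not tested.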

How the results depend on the processing

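Same-numbered libraries had residual correlations of -0.025 to 0.032 (control and naive, 1 of 8 highest with its own number) and of 0.010 and 0.051 (knockout and control) over 20750 genes, so the replicate number does not pair them. With the replicate number as a block, 5 members were higher and 1 lower between control and naive. Only the numbers 1 and 2 occur among the knockout libraries. The blocked knockout differences rest on these numbers alone, with almost no libraries left to measure spread, so a lack of calls decides nothing. Between knockout and control 0 of all genes were called (3536 at an unadjusted p under 0.05), with log2 fold changes of 0.98 for Hspa1a and -0.068 for Hsp90ab1. Between knockout and naive 5 members were higher, 0 lower and 3322 genes called.

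In the control against naive comparison Hsf1, both HSP90 genes, Hspd1, Hspe1 and Hsph1 kept direction and call under every alternative run, and the members called higher numbered 5 to 9. Those of Hspa8 and Hspa1b did not hold (see their values above), and Dnajb1 stood at -0.054 with total counts and passed with the length and GC trend removed (0.27, adjusted p = 0.0383), as did Hspa1a (1.11, adjusted p = 0.0302). Scaling moved the median of all genes from -0.08 to -0.18 (total counts) and 0.03 (length and GC trend), and for knockout against naive from -0.08 to -0.19 and 0.11, where 5 and 7 members were then higher. Between knockout and control no member was called under any alternative, but small values turned: Hspa1a to 0.0076 with DESeq2, 0.0069 with RLE factors and 0.15 with the trend removed, and Hsf1 to 0.041 with it. Leaving out 1 library gave -0.0021 to 0.12 for Dnajb1 in control against naive, and in knockout against control -0.42 to 0.31 for Hspa1a, -0.34 to 0.36 for Hspa1b, -0.040 to 0.15 for Hspa8, -0.22 to 0.10 for Hsp90aa1 and -0.086 to 0.094 for Hsp90ab1, with 651 to 2858 genes called; a lone knockout library is assumed to vary like the controls. Members called for usage, control against naive and knockout against control, numbered 5 and 2 with at least 10 counts in every library (against 39.5 and 2.32% of all genes) and 4 and 0 with voom (42.7 and 9.91%). The causes were not tested. The SE between control and naive was 0.44 for Hspa1a, at 79 to 1187 counts per library, and 0.45 for Hspa1b, at 119 to 2294 counts, so it was no smaller for the gene with more counts.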
